A study of Mus musculus with 10 samples.

Results

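Genes of drug and toxin defence, 8 of the 24368 genes in the table, were followed in mouse proximal jejunum of wild-type animals and of animals lacking HuR, a protein that binds messenger RNA, in the epithelium. They were taken by name: the 4 sensor genes Nr1i2, Nr1i3, Ahr and Rxra, and the 4 efflux pump genes Abcb1a, Abcg2, Abcc2 and Abcc3. All 8 were in the table and all 8 passed the filter on low values. RNA-seq was done on 10 libraries of total RNA, 5 labelled WT and 5 labelled HuR cKO, each from a separate mouse. The cKO mice carry a conditional deletion of HuR, the product of Elavl1, in the intestinal epithelium, and the WT mice were their littermates. The sources used here do not give the promoter that drives the deletion, the age, sex and diet of the mice, or the time of day at sampling. Library numbers follow the labels, so that the WT libraries are 1, 3, 4, 5 and 6 and the cKO libraries 1 to 5.

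The small intestine meets foreign compounds from food before any other organ and carries a defence against them in its absorptive cells. PXR (Nr1i2) and CAR (Nr1i3) are nuclear receptors that are activated by drugs and bile acids, pair with RXR alpha (Rxra) and switch on oxidising, conjugating and exporting proteins. The aryl hydrocarbon receptor (Ahr) senses planar aromatic compounds and plant indoles, and pairs with a different partner, ARNT. P-glycoprotein (Abcb1a), BCRP (Abcg2) and MRP2 (Abcc2) sit in the apical membrane and pump compounds back into the gut lumen, while MRP3 (Abcc3) exports conjugates across the basolateral side toward the blood.

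Values are read counts per gene divided by 1 size factor per library, called normalised reads below. The reads behind them came to between 16063987 and 18927440 per library. Elavl1 itself ranged from 630.5 to 709 in WT and from 556 to 725 in cKO (limma adjusted p = 0.798). As the sources do not name the exons removed, these levels are no check of the genotype, and directions follow the labels. All 10 enterocyte markers examined were present, with the villin gene Vil1 at 42461 or more in every library. Of 5 pancreatic markers in the table, 4 stayed under 10 normalised reads in all libraries. The 5 summed to 116 to 197 in WT and 104 to 206 in cKO. The liver gene Alb reached at most 15.2, but of 5 liver markers in the table only 1 stayed under 10 in all libraries. The liver markers summed to 1206 to 2421 in WT and 1216 to 3105 in cKO. Libraries cKO 3 and cKO 5 stood apart in clock genes, with Per2 at 12.7 and 16.03 against 342 to 749 in the other 8, so results are also given without them. Library cKO 1 stood apart in mitochondrial reads, at 9.48% of its total against 2.69% to 6.09% in the other 9, and Abcg2 without it is given with its result. In this bulk tissue, fewer cells of a type and less RNA per cell cannot be told apart.

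Abcg2 was the 1 member of 8 that passed the test between the groups, and it rose 1.99-fold in the libraries labelled cKO. The other 7 members had lower means in cKO than in WT and none of them passed. Of all 14062 genes in the test, 1.32% had a limma adjusted p under 0.05: 62 (0.441%) were higher and 124 (0.882%) lower in the cKO libraries. With library totals as the scale in edgeR the split was 86 higher and 74 lower, and with totals that leave out mitochondrial genes in limma it was 71 higher and 79 lower. On these scales the median over all genes, 0.01 in log2, became 0.14 and 0.12. The sign of each of the 8 members was the same under both.

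Among the 7 members with lower means, the limma test on unadjusted p-values under 0.05 would have taken 4 (Nr1i2, Nr1i3, Ahr and Rxra), where 10.1% of all genes were lower by that rule and 18.6% passed it in either direction. The count methods edgeR and DESeq2 and the weighted voom fit also passed Abcg2 and none of the other 7. Of all 14062 genes they called 181, 750 and 259. The 8 members had a median log2 fold change of -0.50, beside 0.01 over all genes tested. Without cKO 3 and cKO 5 the median of the members was -0.30, again beside 0.01. Negative fold changes made up 49.0% of all genes tested.

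**Figure D1:**
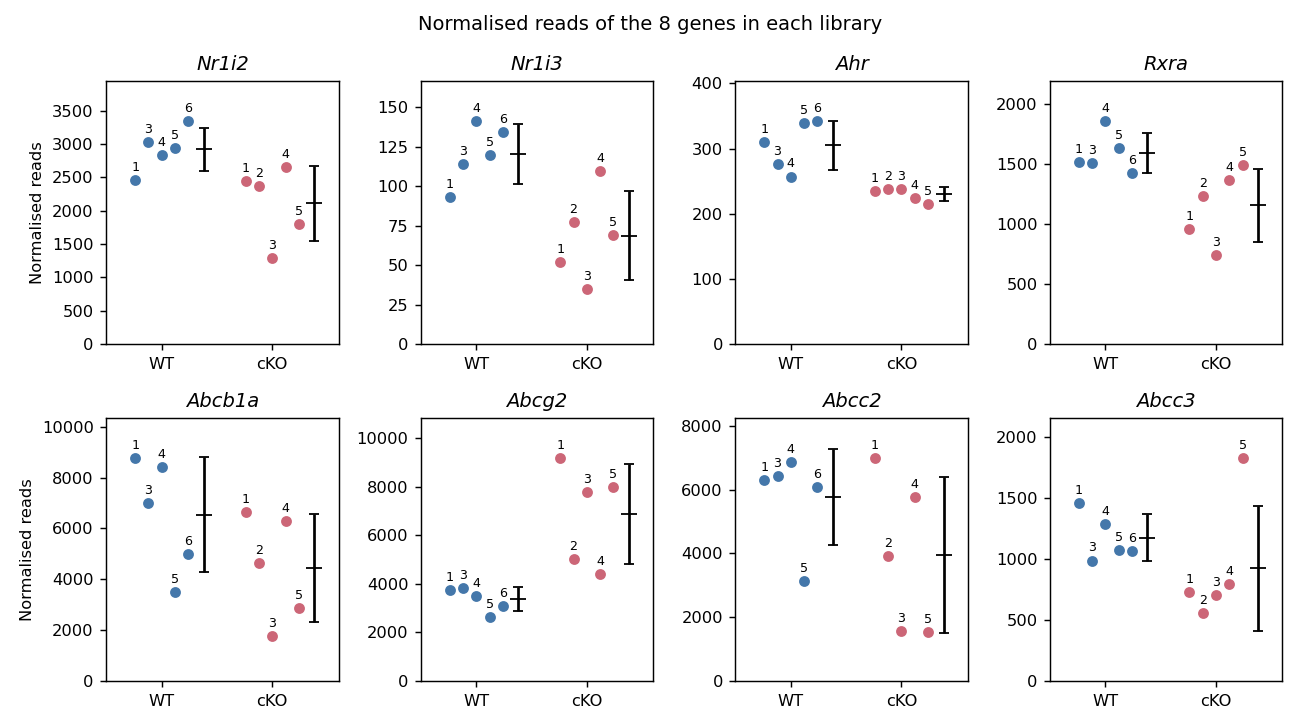
Normalised reads (vertical axes, each starting at 0) of the 8 genes in the 5 WT libraries (blue) and the 5 cKO libraries (red), numbered as in the labels, with the mean and SD of each group in black. Abcg2 is above the highest WT value of 3813 in all 5 cKO libraries, and Ahr is below the lowest WT value of 257 in all 5.

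PXR, encoded by Nr1i2 on chromosome 16 (38248323 to 38294824, mm10), is the main drug sensor of this tissue. In WT 1, 3, 4, 5 and 6 it stood at 2459.8, 3030, 2839.7, 2944 and 3343 normalised reads. In cKO 1 to 5 the values were 2448, 2367, 1286, 2653 and 1802. In all, 4 cKO libraries lay below the lowest WT library and cKO 4 lay inside the WT range, with the lowest values in cKO 3 and cKO 5. Mean levels were 2923 ± 319.97 for WT against 2111 ± 559 for cKO (SD, n = 5 each). The log2 fold change was -0.51 ± 0.20 (SE, 95% interval -0.93 to -0.09), with a limma adjusted p of 0.184. Without cKO 3 and cKO 5 it was -0.23 (limma adjusted p = 0.583).

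CAR, encoded by Nr1i3 on chromosome 1 (171213970 to 171220701), was the scarcest of the 8 genes. Its values were 93.1, 114, 141, 119.7 and 134 in WT 1, 3, 4, 5 and 6. They were 52.1, 77.3, 34.9, 109.8 and 68.9 in cKO 1 to 5, so that cKO 4 alone overlapped the WT libraries. The fewest reads behind a value were 41, in cKO 1, so counting error adds to the spread of this gene. The log2 fold change was -0.89 ± 0.27 (SE, 95% interval -1.45 to -0.33), the lowest among the 8, with a limma adjusted p of 0.104. It crossed the threshold when cKO 4 was left out (-1.08, limma adjusted p = 0.0310) and in none of the other 21 alternatives. The fit without cKO 4 called 611 genes of all those tested, against 186 with all libraries. The gene Tomm40l overlaps Nr1i3 on the opposite strand at 58.5 to 106 normalised reads, and without a stated strand setting reads of the pair cannot be fully told apart.

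The receptor gene Ahr (chromosome 12, 35497974 to 35535038) had the narrowest cKO values of the 8 genes. WT libraries 1, 3, 4, 5 and 6 held 311, 276, 257, 339 and 342 normalised reads. The cKO libraries 1 to 5 held 235, 238, 239, 224 and 215. Every cKO library was below every WT library, a pattern that 3.01% of all genes tested showed in this direction and 4.87% in either. Its log2 fold change was -0.40 ± 0.15 (SE, 95% interval -0.71 to -0.09), a mean 1.32-fold lower, and did not pass (limma adjusted p = 0.167). Without cKO 3 and cKO 5 it was -0.38 (limma adjusted p = 0.391), close to the value with all libraries. Ahr is also active in lymphocytes of the gut wall. The summed markers of T cells and innate lymphoid cells ran from 11191 to 12811 in WT and from 10010 to 17320 in cKO, with 10 of 10 in the table. The part of these cells in the Ahr values was not tested.

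RXR alpha is the shared partner of PXR, CAR and many other nuclear receptors, and Rxra lies on chromosome 2 (27676440 to 27762957). It stood at 1522, 1515, 1860.3, 1640.02 and 1432 in WT 1, 3, 4, 5 and 6. In cKO 1 to 5 it stood at 959, 1235, 743, 1368 and 1493. Only cKO 5 reached the WT range, and cKO 3 and cKO 1 were the lowest. Rxra had a log2 fold change of -0.50 ± 0.19 (SE, 95% interval -0.90 to -0.10), with a limma adjusted p of 0.178, and -0.43 without cKO 3 and cKO 5 (limma adjusted p = 0.322).

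BCRP, the product of Abcg2 (chromosome 6, 58584523 to 58695676), is a transporter that exports sulfated and glucuronidated compounds, urate, dietary toxins and many drugs. Its values in WT 1, 3, 4, 5 and 6 were 3757, 3813, 3498, 2629 and 3088 normalised reads. In cKO 1 to 5 they were 9182, 5016, 7765, 4420.4 and 7995. All 5 cKO libraries were above all 5 WT libraries, with cKO 1, 3 and 5 far above cKO 2 and 4. Genes higher in cKO without overlap made up 1.86% of all genes tested. Mean levels were 3357 ± 498 for WT against 6876 ± 2052 for cKO (SD, n = 5 each). Its log2 fold change was 0.99 ± 0.21 (SE), which is 1.99-fold with a 95% interval of 1.45 to 2.72 (limma adjusted p = 0.0353).

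The call for Abcg2 was lost when any of the 5 WT libraries, or cKO 1, cKO 3 or cKO 5, was left out, at limma adjusted p from 0.0532 to 0.0904 and log2 fold changes from 0.87 to 1.04. It held without cKO 2 (1.09, limma adjusted p = 0.0287) and without cKO 4 (1.14, limma adjusted p = 0.0109). With cKO 1, the library highest in mitochondrial reads, left out, the log2 fold change was 0.87 (limma adjusted p = 0.0532). Without both cKO 3 and cKO 5 the log2 fold change was 0.82 (95% interval 0.32 to 1.32, limma adjusted p = 0.175), in a fit where 0.398% of all genes passed.

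Summed markers of some other cells, but not of all, were high in cKO libraries beside Abcg2. Goblet, Paneth, tuft and B and plasma cell markers had negative median log2 fold changes, at -0.15, -0.53, -0.54 and -0.996. In limma 0 of them passed. The summed crypt and proliferation markers, 10 of 10 in the table, ran from 2887 to 3723 in WT and stood at 7589, 2978, 5980, 3287 and 4405 in cKO 1 to 5. The 3 cKO libraries with the most Abcg2 also held the most of these markers, and in cKO 2 and cKO 4 the crypt sums lay inside the WT range. Of the 9 crypt markers tested, 0 passed in limma, edgeR, DESeq2 or the weighted voom fit, and 0 had an unadjusted limma p under 0.05. The summed T cell and innate lymphoid markers were highest in the same libraries, at 16114, 17320 and 15397 in cKO 1, 3 and 5. They stood at 11768 and 10010 in cKO 2 and 4, against 11191 to 12811 in WT. Of these markers 9 were tested, and in limma 0 rose and 1 fell. Endothelial markers (10 of 10) summed to 491 to 686 in WT and 1040 to 1697 in cKO, and fibroblast markers (6 of 6) to 4847 to 6066 and 6211 to 9835, both above WT in all 5 cKO libraries. Of the fibroblast markers, the collagen genes Col1a1 (2.03-fold, limma adjusted p = 0.0426) and Col3a1 (1.69-fold, limma adjusted p = 0.0357) rose, and 0 of the 6 passed without cKO 3 and cKO 5. Without the lymphatic gene Lyve1 the endothelial sums spanned 267 to 366 among WT and 278 to 652 among cKO libraries. Enteroendocrine markers summed to 2737 to 3988 in WT and 3572 to 4396 in cKO. In limma 2 of the 7 tested rose and 0 fell, while at an unadjusted p under 0.05, 2 were higher and 2 lower. The part of crypt cells, lymphocytes, enteroendocrine cells, endothelium or fibroblasts in the Abcg2 values was not tested.

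To show the regulatory sequence next to the gene that passed, the 250 bases before each of the 3 Abcg2 start sites in RefSeq are given below (GRCm38.p6, the assembly also called mm10, plus strand), with the same stretch before Abcc2, a pump whose mean was lower in cKO, for contrast. Capitals mark matches on either strand to AGGTCA, the half-site bound by nuclear receptors such as PXR, CAR and RXR. They also mark matches to TTATGNAA, a loose pattern for the D-box of clock output factors, in which N is any base. The first Abcg2 stretch is chr6:58584283-58584532, the second is chr6:58596422-58596671, the third is chr6:58640296-58640545, and that of Abcc2 is chr19:43782058-43782307.
Abcg2 start 1: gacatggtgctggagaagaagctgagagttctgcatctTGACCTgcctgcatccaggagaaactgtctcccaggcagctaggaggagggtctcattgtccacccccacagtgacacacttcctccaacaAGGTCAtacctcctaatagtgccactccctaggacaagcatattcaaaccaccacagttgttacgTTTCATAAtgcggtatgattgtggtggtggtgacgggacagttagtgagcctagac
Abcg2 start 2: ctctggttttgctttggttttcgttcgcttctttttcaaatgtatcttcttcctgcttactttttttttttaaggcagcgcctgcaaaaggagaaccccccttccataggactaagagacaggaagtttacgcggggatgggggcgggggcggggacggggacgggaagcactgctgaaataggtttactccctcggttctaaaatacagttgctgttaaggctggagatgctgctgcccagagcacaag
Abcg2 start 3: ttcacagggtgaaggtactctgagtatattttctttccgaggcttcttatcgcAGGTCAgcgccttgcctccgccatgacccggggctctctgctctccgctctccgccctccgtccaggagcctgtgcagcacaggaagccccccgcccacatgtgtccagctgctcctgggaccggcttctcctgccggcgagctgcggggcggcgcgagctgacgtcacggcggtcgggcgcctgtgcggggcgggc
Abcc2 start 1: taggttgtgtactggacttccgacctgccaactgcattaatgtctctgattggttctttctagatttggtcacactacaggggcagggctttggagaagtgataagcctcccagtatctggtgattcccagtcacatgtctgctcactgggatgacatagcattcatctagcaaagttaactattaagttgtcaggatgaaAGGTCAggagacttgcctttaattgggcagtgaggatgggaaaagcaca

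The first Abcg2 stretch holds 2 half-sites, beginning 212 and 121 bases before the start base. It also holds 1 match to the loose D-box pattern, beginning 56 bases before the start base, with A as the free base. The second holds neither motif, and the third holds 1 half-site beginning 197 bases before its start. Abcc2 has 1 half-site, beginning 49 bases before the start. Searches for 4 motifs used windows of 300 bases that also take in the first 50 transcribed bases, on both strands, and no matches of different motifs overlapped in these 4 windows. RefSeq entries were found for 6 of the 8 members, with 9 windows in all, and 4 of the 9 held the half-site. The Abcb1a window (chr5:8566841-8567140) lies before the span of the counted gene, which begins at 8660077. Over all 32851 windows the half-site was found in 16.3% and the loose D-box pattern in 3.38%. The E-box CACGTG was found in 7.15% and GCGTG, the core of AHR sites, in 32.4%. Among the 9 windows 1 held an E-box (Nr1i3) and 1 held GCGTG (the third Abcg2 start). The counts do not separate which Abcg2 start was used, and a match is a description of letters only.

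P-glycoprotein, encoded by Abcb1a (chromosome 5, 8660077 to 8748575), is the best known drug pump of the gut. Values ran to 8774, 6987, 8418, 3497 and 4989.8 normalised reads in WT 1, 3, 4, 5 and 6. In cKO 1 to 5 they were 6653, 4649, 1785, 6305 and 2866. Both groups were wide, 3 of the 5 cKO libraries lay inside the WT range, and cKO 3 and cKO 5 lay below it. The log2 fold change was -0.63 ± 0.36 (SE, 95% interval -1.42 to 0.15), with a limma adjusted p of 0.367. Without cKO 3 and cKO 5 it was -0.09 (95% interval -0.70 to 0.51, limma adjusted p = 0.920). Abcb1b, a related gene with which some reads may be shared, was low, between 13.6 and 42.01 over the 10 libraries.

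MRP2, encoded by Abcc2 (chromosome 19, 43782192 to 43840740), exports glutathione, glucuronide and sulfate conjugates. It stood at 6293, 6438, 6869, 3126 and 6074 in WT 1, 3, 4, 5 and 6. The cKO libraries 1 to 5 held 6991, 3926, 1578, 5753 and 1527. Here cKO 1 was above every WT library while cKO 3 and cKO 5 were at about the same low level, each under every WT library. The log2 fold change was -0.76 ± 0.43 (SE, 95% interval -1.70 to 0.18; limma adjusted p = 0.366) and -0.04 without cKO 3 and cKO 5 (95% interval -0.61 to 0.53, limma adjusted p = 0.966). In cKO 3 and cKO 5 the summed markers of enterocytes, the cells that make these apical pumps, were also the lowest, at 783569 and 877973 against 1158901 to 1345884 in WT. The sum in cKO 2, 1092931, was also under every WT library. Those in cKO 1 and cKO 4, 1536324 and 1408267, were above every WT library. Of the 10 enterocyte markers tested, 0 passed in limma. The part of enterocyte content or of the clock state in the Abcb1a and Abcc2 values was not tested.

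MRP3, encoded by Abcc3 (chromosome 11, 94343295 to 94392997), differed from the apical pumps in which libraries were low. Its values were 1457, 986, 1285, 1074 and 1062 in WT 1, 3, 4, 5 and 6. They were 729, 559, 701, 797 and 1827 in cKO 1 to 5. The first 4 cKO libraries were below every WT library, and cKO 5 was above every WT library. Abcc3 had a log2 fold change of -0.47 ± 0.26 (SE, 95% interval -1.02 to 0.08; limma adjusted p = 0.347). Leaving out cKO 5 gave -0.75 (limma adjusted p = 0.0574), and leaving out cKO 3 as well gave -0.76 (95% interval -1.16 to -0.35, limma adjusted p = 0.111).

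**Figure D2:**
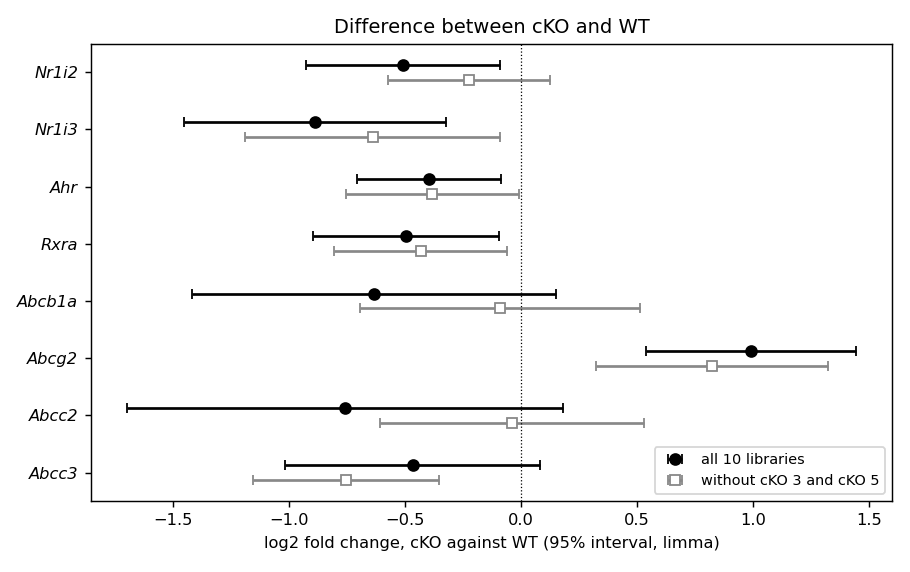
Log2 fold change of cKO against WT for each of the 8 genes (horizontal axis, limma on log2(value + 1)), with 95% intervals, for all 10 libraries (black circles) and without cKO 3 and cKO 5 (open squares). Abcg2 is at 0.99 and 0.82, while Abcb1a moves from -0.63 to -0.09 and Abcc2 from -0.76 to -0.04.

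Read across the members, cKO 3 had the most genes outside the WT range. In it 7 of the 8 genes were below the WT range and Abcg2 was above it. In cKO 1, 2 and 5 the genes below the WT range numbered 5 each, and in cKO 4 there were 3. Of all 14062 genes tested, 28.9%, 20.7%, 30.9%, 19.7% and 23.9% were below the WT range in cKO 1 to 5, so cKO 3 was also the library with the most genes below it overall. Above the WT range were 29.9%, 20.0%, 29.3%, 20.7% and 24.1%. Libraries cKO 1 and cKO 5 each had 2 genes above the WT range (Abcg2 with Abcc2 in cKO 1, and Abcg2 with Abcc3 in cKO 5). Ahr was below and Abcg2 above the WT range in all 5 cKO libraries, and Abcc3 was outside it in all 5 but not on one side.

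**Figure D3:**
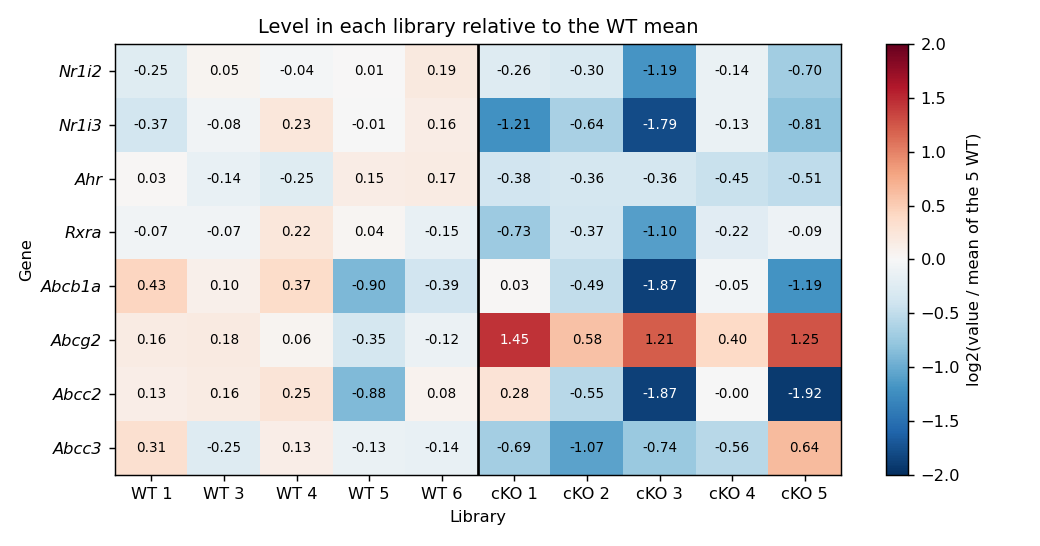
Log2 of the level of each gene (rows) in each library (columns) over the mean of the 5 WT libraries, printed in each cell and shown from blue (lower) to red (higher). The black line separates WT from cKO. In cKO 3 every gene except Abcg2 is blue, and Abcb1a and Abcc2 are lowest in cKO 3 and cKO 5.

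Levels of different genes were compared per kilobase of the gene length in the table, without knowledge of the transcript in use. In WT, Abcb1a stood highest at 1192 ± 412 normalised reads per kilobase, followed by Nr1i2 at 1145 ± 125 (SD, n = 5 each). These 2 could not be separated, as their ranges overlapped (638 to 1601 and 963 to 1309). Abcc2 followed at 675 ± 176, with every library below the Nr1i2 range. Next were Abcg2 at 412 ± 61.0 and Rxra at 292 ± 30.5, and the range of Abcg2 overlapped those of both Abcc2 and Rxra. Abcc3 at 206 ± 34.0, Ahr at 49.5 ± 6.11 and Nr1i3 at 27.3 ± 4.26 were each separated from the gene above. In cKO the highest mean level was that of Abcg2, at 843 ± 252, with Nr1i2 at 827 ± 219 and Abcb1a at 812 ± 387, 3 levels that did not differ beyond their spread. Abcc2 followed at 464 ± 287, Rxra at 212 ± 55.9, Abcc3 at 162 ± 90.0, Ahr at 37.3 ± 1.70 and Nr1i3 at 15.5 ± 6.39.

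The balance between the luminal pumps was also set side by side. The ratio of Abcg2 to Abcb1a, both per kilobase, was 0.288, 0.367, 0.279, 0.505 and 0.416 in WT 1, 3, 4, 5 and 6. It was 0.928, 0.725, 2.92, 0.471 and 1.88 in cKO 1 to 5. Abcb1a exceeded Abcg2 on this scale in all 5 WT libraries, and Abcg2 exceeded Abcb1a in cKO 3 and cKO 5. The ratio of Abcg2 to Abcc2 ran from 0.532 to 0.880 in WT and from 0.804 to 5.48 in cKO, where cKO 4 again overlapped WT. These ratios were chosen after the values were seen and carry no test.

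Genes that the sensors regulate were described from lists of the pathway. Of 21 enzymes known as PXR or CAR targets, all tested, 3 fell and none rose in limma, with a median log2 fold change of -0.44. At an unadjusted p under 0.05, 2 were higher and 8 lower, where 10.1% of all genes tested were lower and 18.6% passed in either direction. edgeR called the same numbers as limma, the weighted voom fit called 4 that fell, and DESeq2 called 4 that fell and 2 that rose. The 2 were the glutathione transferase genes Gstm1, at 1184 ± 409 for WT against 2555 ± 1460 for cKO, and Gstm3, at 1476 ± 703 against 3946 ± 2285 (SD, n = 5 each; limma adjusted p = 0.110 and 0.126), and the further gene that fell was Ugt1a1. Cyp2b10, the classic CAR target among the cytochromes P450, ran from 3896 to 7664 in WT and from 1003 to 3726 in cKO, without overlap, and fell 3.04-fold (limma adjusted p = 0.0314). Akr1b7, an aldo-keto reductase, fell 3.59-fold, from 4630 ± 1302 to 1339.7 ± 493 normalised reads (SD, n = 5 each; limma adjusted p = 0.00667). Cyp3a44 fell 5.26-fold, from 120.01 ± 26.8 to 23.3 ± 9.95 (SD, n = 5 each; limma adjusted p = 0.00185), though reads of the Cyp3a family can be shared between near-identical copies.

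Without cKO 3 and cKO 5 the falls of Akr1b7 (limma adjusted p = 0.0111) and Cyp3a44 (limma adjusted p = 0.00447) passed and that of Cyp2b10 did not (log2 fold change -1.16, limma adjusted p = 0.104), and the median of the list was -0.12. Leaving out WT 1, 3, 4 or 6, or cKO 3 or cKO 5, also ended the Cyp2b10 call, at limma adjusted p from 0.0530 to 0.0880. Other targets had wide spreads. Cyp3a11, the main PXR target of the mouse, averaged 13134 ± 7496 across the WT and 6052 ± 4173 across the cKO libraries (SD, n = 5 each; limma adjusted p = 0.263).

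Of 10 AHR target genes in the table, 6 were tested and none passed in limma, while 1 was higher and 1 lower at an unadjusted p under 0.05. Over all genes tested 18.6% passed that rule in either direction. edgeR called 0, and DESeq2 and the weighted voom fit each called 1 that rose, Cyp1b1. The 2 with the smallest p lay in opposite directions. Cyp1a1, the most inducible enzyme of the AHR response, averaged 1471 ± 601 for WT against 558 ± 422 for cKO (SD, n = 5 each; limma adjusted p = 0.1997). Cyp1b1 averaged 73.3 ± 22.2 for WT against 148 ± 51.4 for cKO (SD, n = 5 each; limma adjusted p = 0.0731). The list median was 0.02.

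Partners and cofactors of the sensors showed no call. Of 15 tested, including ARNT, the HSP90 chaperones, coactivators and corepressors, 0 passed in limma, edgeR, DESeq2 or the weighted voom fit, and 0 had an unadjusted limma p under 0.05. Hsp90aa1, a chaperone gene, averaged 6487 ± 1422 for WT against 10382 ± 6979 for cKO (SD, n = 5 each; limma adjusted p = 0.388). Among 14 tested RXR paralogues and dimer partners, Rara, a retinoic acid receptor gene, fell 1.84-fold, with WT values of 222 to 309.9 and cKO values of 117 to 194 (limma adjusted p = 0.0266). edgeR and the weighted voom fit also called 1 that fell and none that rose, and DESeq2 added 1 that rose, the bile acid receptor gene Nr1h4. At an unadjusted limma p under 0.05, 5 of the 14 were lower and 1 was higher, where 10.1% of all genes tested were lower and 18.6% passed in either direction. The Rara call was lost without WT 3, 4, 5 or 6 or cKO 3, at limma adjusted p from 0.0590 to 0.0850. It was also lost with library totals in edgeR (adjusted p = 0.108) or totals without mitochondrial genes in limma (adjusted p = 0.103). On the 8 libraries whose replicate numbers occur in both groups it was lost with a replicate block (limma adjusted p = 0.0693) and without one (limma adjusted p = 0.0783).

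Of 11 other ABC exporters tested, 0 passed in limma or edgeR, 3 were lower at an unadjusted p under 0.05, and DESeq2 called 1 that fell. Abcc6 averaged 28.4 ± 9.18 for WT against 11.8 ± 4.28 for cKO (SD, n = 5 each; limma adjusted p = 0.0928). Abcg5, a subunit of the sterol exporter of the brush border, stood at 3861 ± 442 and 2769 ± 831 (SD, n = 5 each; limma adjusted p = 0.1904). Of 10 uptake carriers tested, Slc19a1, the reduced folate carrier, fell 2.89-fold, from 312 ± 52.5 to 111 ± 35.6 normalised reads (SD, n = 5 each; limma adjusted p = 0.00518). It passed in all 22 alternatives. At an unadjusted limma p under 0.05, 3 of the 10 carriers were lower and 0 higher. By that rule 10.1% of all genes tested were lower, for comparison with both the exporters and the carriers. edgeR also called 1 carrier that fell, while DESeq2 and the weighted voom fit each called 2, the second being Slc47a1, and no carrier rose in any of the 4. The medians were -0.01 for partners, -0.20 for RXR partners, -0.10 for other exporters and -0.21 for uptake carriers. With library totals in edgeR they were 0.11, -0.05, 0.09 and -0.09, so the sign of 2 of these medians depended on the scale.

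**Figure D4:**
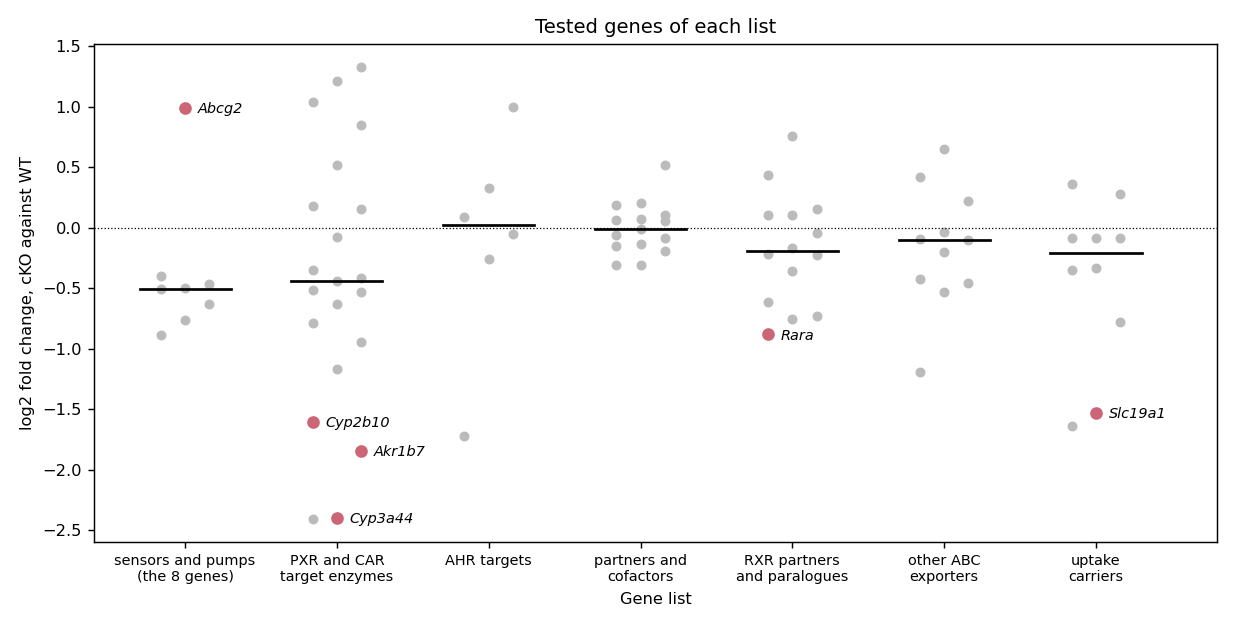
Log2 fold change of cKO against WT (vertical axis, limma) of every tested gene in the list of the 8 sensors and pumps and in 6 pathway lists. Red points with names passed an adjusted p of 0.05, grey points did not, and black bars are list medians. Abcg2 is the 1 red point above 0, and the 5 others (Cyp2b10, Akr1b7, Cyp3a44, Rara and Slc19a1) lie below it.

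Genes with the most similar course over the 10 libraries were found by the root mean square difference of log2(value + 1), each gene centred on its own mean, among 8567 genes with a mean of 100 or more. For Abcg2 these were Xpo4 (0.21), which encodes an exportin, Rps18 (0.21), a ribosomal protein gene, and Denr (0.21), a translation factor gene, beside a spread of 0.59 for Abcg2 itself. Nr1i2 was followed most closely by Tmem139 (0.06), against its own spread of 0.39, and Nr1i3 by Hook2 (0.11), against 0.61. Next to Abcb1a (spread 0.70) stood Rundc3b (0.22) and the nuclear receptor gene Ppara (0.23). Next to Abcc2 (spread 0.81) stood Gprin3 (0.25) and the clock repressor gene Nr1d2 (0.25). The gene closest to Ahr was BC005537 (0.11, spread 0.23), that closest to Rxra was Tbc1d22b (0.10, spread 0.37), and that closest to Abcc3 was Slc12a8 (0.20, spread 0.50). Ppara is also on the list of RXR partners, where it did not pass.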

How the data were processed

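RNA-seq libraries came from total RNA of proximal jejunum. Per the submitters' processing notes, CASAVA, HISAT2 2.0.5, mm10, featureCounts 1.5.0-p3 and DESeq2 1.20.0 were used; the annotation release and strand setting are not stated in the sources. The authors deposited a normalised signal per gene and library, found from the values to be counts divided by 1 size factor per library: all values were whole multiples of the smallest value of their library within 0.001, which returned the reads. Gene length, another column the authors deposited, was used per kilobase. Another 2 columns of per-sample values match no label and were not used.

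A filter left 14062 of 24368 genes, those averaging at least 10. Genotype was tested on log2(value + 1) by limma 3.58.1 (R 4.3.3; trended, robust empirical Bayes), with Benjamini-Hochberg adjustment over all genes tested. Alternatives were edgeR 4.0.16 quasi-likelihood tests, DESeq2 1.42.0 and voom on the recovered reads, other pseudocounts, filters and scales, the replicate number as a block, and leaving out libraries. The limma step was tested on simulated data. Named genes were the 8 members, from each pathway list the genes that passed (otherwise the 2 with the smallest p), and the genes closest in course to each member. A gene that this rule names is not reported here. Cyp3a11, Abcb1b, Gstm1, Gstm3, Ugt1a1, Nr1h4, Slc47a1, Col1a1 and Col3a1 were named after their values were seen. The members, lists and tests were chosen with earlier results of these data known. The labels call the libraries separate mice, and p-values measure the spread between these libraries. Fold changes on the log2(value + 1) scale understate those of low genes. Figures used matplotlib 3.10.9 in Python 3.11.15.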

Additional observations from a re-analysis of the deposited data

Results flagged for a closer look

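In 40 groups of 5 values checked (8 members, 11 named pathway genes and Elavl1, in WT and in cKO), 3 held a library far from the others, where chance gives about 1 in 20. Abcc2 in WT 5, at 3126 normalised reads, was far below the other WT libraries at 6074 to 6869; without it the log2 fold change of Abcc2 was -0.97 (limma adjusted p = 0.294). Abcc3 in cKO 5, at 1827, was far above the other cKO libraries at 559 to 797. Hsp90aa1 in cKO 1, at 22694, was far above the other cKO libraries at 6210.4 to 9165.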

How the results depend on the processing

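No member changed sign in any of 22 alternatives. Calls for Abcg2 held in 11 and were lost in 11, with log2 fold changes from 0.82 to 1.15 and adjusted p from 0.000428 (DESeq2) to 0.175 (without cKO 3 and cKO 5). The number of members called was 1 in limma, 0 without cKO 3 and cKO 5, and from 0 to 2 with 1 library left out. All genes called numbered 186 in limma, 750 in DESeq2, 56 without cKO 3 and cKO 5, and from 30 (without WT 4) to 611 (without cKO 4) with 1 library left out. It was 91, 44, 67 and 60 without WT 1, 3, 5 or 6, and 65 and 111 without cKO 3 or cKO 5; the cause was not tested. Replicate numbers 1, 3, 4 and 5 occur in both groups. The correlations of deviations for the same numbers were 0.12, 0.02, -0.11 and 0.10. Those for unequal numbers ran from -0.23 to 0.26. These values cannot decide whether equal numbers mark a shared litter or batch, and the labels do not say. With the replicate block on those 8 libraries 134 genes and 0 members passed, and with no replicate block on the same 8 it was 89 genes and 0 members. Comparing levels per kilobase of coding sequence was not run. Depth limits Nr1i3 most, with 41 to 145 reads per library.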
